A study of Mus musculus and Mus musculus musculus x Mus musculus castaneus with 8 samples.

Results

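Open chromatin sites of C2C12 myoblasts were compared with those of mouse embryonic fibroblasts (MEFs), using the list of C2C12 sites from 50000 cells and the list of MEF sites before nuclear transfer (NT). Every site of both lists was taken, which gave 52697 C2C12 peaks and 39592 MEF peaks, together 92289 of the 151729 peaks in the 5 lists of the series. A peak was called shared when it overlapped a peak of the other list by at least 1 bp, and C2C12-only or MEF-only otherwise. Where both lists were merged into non-overlapping loci, 66011 loci remained. Of these, 24797 were shared, 27184 were C2C12-only and 14030 were MEF-only.

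The series used ATAC-seq to follow chromatin accessibility in mouse nuclei before and after transplantation into Xenopus laevis oocytes. C2C12 cells served to set up the assay at different cell numbers, and MEFs were the donor cells of the transfers. The remaining 3 lists came from C2C12 cells at 1000 cells, from MEF nuclei recovered 48 h after NT, and from the same time point in oocytes with overexpressed Toca1/Fnbp1l, a factor that promotes actin polymerization.

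The C2C12 list stands for 2 libraries of 50000 cells each from this myoblast line, of strain C3h. The MEF list stands for 1 library of 3000 cells. These fibroblasts came from embryos of a cross of Mus musculus musculus with Mus musculus castaneus and had been permeabilized for NT. Both cell types were grown in DMEM with 10% FBS, and the labels name no drug or transgene for either. Cell type, strain, permeabilization, cell number and number of libraries all differ between the lists and cannot be told apart. The lists record whether a site passed a false discovery rate of 0.01, with no score and no number of reads, so the depth of each library is unknown. With 1 list per condition there is no spread between replicates and no p-value. The 95% intervals given are Wilson intervals for shares and order-statistic intervals for medians, and they cover counting error over peaks only.

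In ATAC-seq the Tn5 transposase inserts sequencing adaptors into DNA that is not covered by nucleosomes, so that reads pile up at promoters, enhancers and other regulatory elements. Promoters of widely expressed genes tend to be open in most cell types, whereas enhancers differ more between cell types. C2C12 is a line of myoblasts, the proliferating precursors of muscle fibres, and MEFs are a mixed population of connective tissue cells cultured from the embryo. Whether the sites of each list lie near myoblast or fibroblast marker genes was not analysed here, because no annotation of the build of the lists (mm9) was used.

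The lists give positions without gene names. Genes could be placed only where a C2C12 peak overlapped a peak that appeared after NT and that the study's supplementary lists pair with a gene. Those lists hold only peaks at least 5000 bp from a MEF peak, so every C2C12 peak placed this way lay away from MEF peaks by construction. Of 219 genes that these lists pair with a promoter peak after NT, 78 (35.6%) had a C2C12 peak at the same site. Of all 3146 peaks after NT at least 5000 bp from a MEF peak, 259 (8.23%) overlapped a C2C12 peak, a share of peaks and not of genes. Among the 10 of these genes with the widest C2C12 peak, the RefSeq promoter windows of 4 that have a single window are shown. These windows of 300 bases, from 250 bases before to 50 bases after the start of the gene, were chosen because these promoters carried some of the widest C2C12 peaks that had no MEF counterpart. Capitals mark a GC box (GGGCGG), an E-box (CAGCTG, the sequence bound by myogenic helix-loop-helix factors) or a CCAAT box, each searched on both strands. The windows are in GRCm38.p6 while the peaks are in mm9, so the place of the peak within the window was not set.
Entpd5 (GRCm38.p6, chr12:84408980-84409279, minus strand): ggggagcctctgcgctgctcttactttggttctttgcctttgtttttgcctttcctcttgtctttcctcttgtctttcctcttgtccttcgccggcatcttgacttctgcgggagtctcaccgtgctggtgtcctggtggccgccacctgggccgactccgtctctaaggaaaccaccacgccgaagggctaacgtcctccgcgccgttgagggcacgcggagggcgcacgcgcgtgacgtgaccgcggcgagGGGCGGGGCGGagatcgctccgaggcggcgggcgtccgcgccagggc
Tmem9b (GRCm38.p6, chr7:109752214-109752513, minus strand): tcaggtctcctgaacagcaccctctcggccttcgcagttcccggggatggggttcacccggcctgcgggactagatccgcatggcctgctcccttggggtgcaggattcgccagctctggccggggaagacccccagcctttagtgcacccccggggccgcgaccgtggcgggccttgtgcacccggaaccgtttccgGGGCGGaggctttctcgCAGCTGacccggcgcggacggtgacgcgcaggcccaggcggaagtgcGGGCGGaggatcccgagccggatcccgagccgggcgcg
Mocs3 (GRCm38.p6, chr2:168230372-168230671, plus strand): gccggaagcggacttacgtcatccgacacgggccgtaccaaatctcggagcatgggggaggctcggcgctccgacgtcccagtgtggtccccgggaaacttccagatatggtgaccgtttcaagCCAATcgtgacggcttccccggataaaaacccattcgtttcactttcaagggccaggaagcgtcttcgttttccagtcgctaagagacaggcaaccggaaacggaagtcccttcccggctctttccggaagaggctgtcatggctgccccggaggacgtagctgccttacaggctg
Tnks2 (GRCm38.p6, chr19:36833982-36834281, plus strand): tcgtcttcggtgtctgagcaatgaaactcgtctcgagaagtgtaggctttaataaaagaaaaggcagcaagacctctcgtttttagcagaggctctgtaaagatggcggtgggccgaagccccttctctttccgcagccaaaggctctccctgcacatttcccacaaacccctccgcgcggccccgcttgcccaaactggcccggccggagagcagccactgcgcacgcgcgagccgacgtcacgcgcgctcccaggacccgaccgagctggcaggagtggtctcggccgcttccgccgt

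The windows of Entpd5 and Tmem9b hold 2 GC boxes each, and those of Entpd5 overlap by their ends. The Tmem9b window also holds 1 E-box. The Mocs3 window holds 1 CCAAT box, and no searched motif is in the Tnks2 window. GC content is 65.3% for Entpd5, 71.7% for Tmem9b, 59.0% for Mocs3 and 61.7% for Tnks2, with 33, 33, 26 and 29 CpG dinucleotides. Of the 78 genes, 54 matched the RefSeq table by symbol, with 66 promoter windows. The median GC content of these windows was 60.2% and their median CpG number 21, against 52.7% and 7 over all 32851 windows of the table. A GC box was present in 45.5% of the 66 windows and in 35.7% of all windows. An E-box was present in 19.7% and 16.3%, a CCAAT box in 16.7% and 37.4%, and an AP-1 motif (TGANTCA, both strands) in 3.03% and 7.81%. GC content, CpG number and the GC box share of these genes thus lay above those of the whole table, and the CCAAT and AP-1 shares below. No test was made of these shares, and a match to these letters is a description of the window only.

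Most MEF peaks had a counterpart in the C2C12 list, whereas a smaller share of C2C12 peaks had one in the MEF list. Of the 39592 MEF peaks, 25562 (64.6%, interval 64.1% to 65.0%) overlapped a C2C12 peak. Of the 52697 C2C12 peaks, 25513 (48.4%, interval 47.99% to 48.84%) overlapped a MEF peak. Because the rule defines these classes, these shares are also the background for all counts of shared peaks given here. Counted as loci, 37.6% were shared, 41.2% were C2C12-only and 21.3% were MEF-only. The difference between both unshared classes depended on how many C2C12 peaks were used. When only the 39592 widest C2C12 peaks (at least 277 bp) were kept, so that both lists were equally long, C2C12-only loci made up 30.8% and MEF-only loci 30.1% of all loci. This setting changes length and width together, and their parts cannot be told apart.

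Shared sites matched closely in position. A single C2C12 peak met a single MEF peak in 23403 of the shared loci (94.4%). Another 743 C2C12 peaks touched 2 MEF peaks and 11 touched 3, and 698 MEF peaks touched 2 C2C12 peaks and 9 touched 3. In the one-to-one pairs the centres lay a median of 52.5 bp apart, and in 72.3% of pairs they lay within 100 bp. The narrower peak lay wholly inside the wider in 56.3% of pairs, and only 21 pairs overlapped by less than 50 bp. Edge contacts were therefore rare among the shared sites.

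The C2C12 peak of a pair was usually the wider. The median width was 504 bp in C2C12 cells and 441 bp in MEFs, and the median ratio of C2C12 to MEF width was 1.11 (quartiles 0.887 and 1.44). The C2C12 peak was wider in 14548 pairs (62.2%), and in 78 pairs the widths were equal. Widths within pairs rose together, with a Spearman correlation of 0.53 over the 23403 pairs, given as a description since the pairs come from the same 2 lists. In bases, 10.6 Mb were open in both lists, which is 43.5% of the C2C12 bases and 60.7% of the MEF bases.

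Shared sites were wider than unshared sites in both cell types. Shared C2C12 peaks had a median width of 503 bp (interval 499 to 507 bp, n = 25513) and C2C12-only peaks 321 bp (interval 319 to 323 bp, n = 27184). Shared MEF peaks had a median of 442 bp (interval 439 to 445 bp, n = 25562) and MEF-only peaks 338 bp (interval 335 to 341 bp, n = 14030). Shared peaks had the larger median on 20 of 20 chromosomes in both lists. The difference ranged from 155 bp on chromosome 19 to 228 bp on chromosome X in C2C12 cells, and from 80 bp on chromosome 12 to 133 bp on chromosome 9 in MEFs. A wider peak also has more room to touch another by 1 bp. The part of this in the difference was not tested. With a reciprocal overlap of at least 50% as the rule, the medians differed by 157 bp in C2C12 cells.

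The share of shared peaks rose with every step in width. In C2C12 cells, 19.6% of the narrowest 10% of peaks (150 to 224 bp) and 85.9% of the widest 10% (807 to 2188 bp) overlapped a MEF peak. In MEFs, the shares were 42.6% for the narrowest 10% (150 to 249 bp) and 88.3% for the widest 10% (692 to 1688 bp). Peaks of at least 1000 bp were nearly all shared, 1890 of 2081 (90.8%) in C2C12 cells and 359 of 384 (93.5%) in MEFs. The lists thus came close to each other at their widest peaks and differed most at their narrowest ones.

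**Figure D1:**
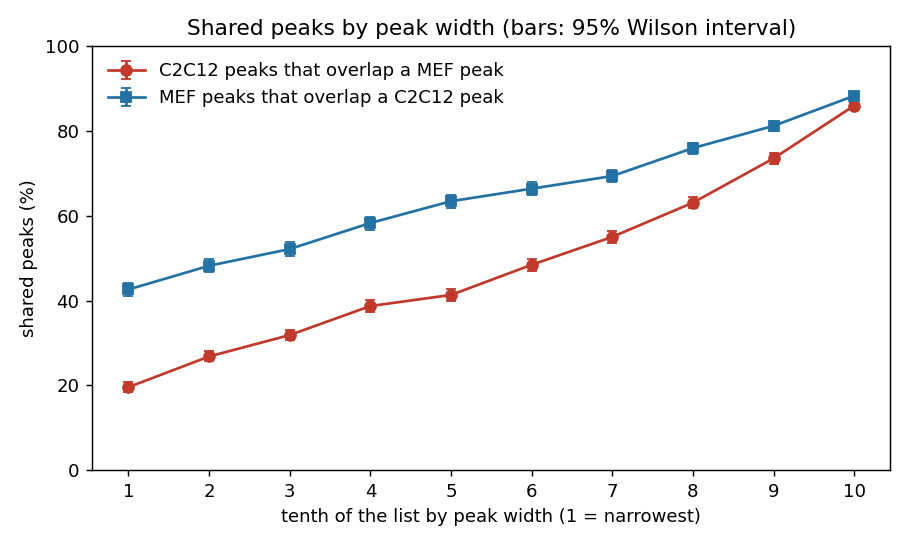
Percentage of C2C12 peaks (circles) and MEF peaks (squares) that overlapped a peak of the other list, in classes of 10% of each list from narrowest to widest, with 95% Wilson intervals. The C2C12 line runs from 19.6% to 85.9% and the MEF line from 42.6% to 88.3%, and the lines nearly meet among the widest peaks.

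The widest shared peak of all was a C2C12 peak of 2188 bp at chr10:39450877-39453064 (mm9, as all peak positions). It was followed by shared C2C12 peaks of 2057 bp at chr10:128240855-128242911 and 1978 bp at chr3:68808146-68810123. The widest shared MEF peak was 1688 bp wide, at chr6:113025952-113027639. None of the 5 widest C2C12-only peaks was paired with a gene in the study's lists. Shared and MEF-only peaks could not be paired, because those lists hold only peaks at least 5000 bp from a MEF peak.

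Wide unshared sites were found as well, though none as wide as the widest shared site of its list. The widest C2C12-only peak spanned 1941 bp at chr5:132012974-132014914 and lay 61210 bp from the nearest MEF peak. It was also overlapped by a peak in both lists of MEF nuclei after NT. The next widest, of 1818 bp at chr2:151355017-151356834, lay 3327 bp from a MEF peak. The widest MEF-only peak spanned 1496 bp at chr1:82358173-82359668, 8939 bp from a C2C12 peak. The most remote of the 5 widest MEF-only peaks was 1256 bp wide at chr3:13640117-13641372, with no C2C12 peak within 740221 bp. None of the 5 widest MEF-only peaks was found in the other 3 lists, which is near the background. Of the MEF-only peaks among the widest 25% of MEF peaks, the 1000-cell C2C12 list overlapped 2.18%. The list after NT overlapped 3.22% of them and the Toca1/Fnbp1l list 7.52%.

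Most unshared sites lay at least 5000 bp from any site of the other list. Of the C2C12-only peaks, 18560 (68.3%, interval 67.7% to 68.8%) lay at least 5000 bp from a MEF peak, measured edge to edge. Of the MEF-only peaks, 10118 (72.1%, interval 71.4% to 72.9%) lay at least 5000 bp from a C2C12 peak. The median distance was 11379 bp for C2C12-only peaks (quartiles 3195 and 31113 bp) and 12265 bp for MEF-only peaks (quartiles 4315 and 33210 bp). Within a list, the median distance to the next peak was 5716 bp in C2C12 cells and 9680.5 bp in MEFs. A distance of 5000 bp is thus below the usual spacing of either list. Near misses were a minority. Within 500 bp of the other list lay 2758 C2C12-only peaks (10.1%) and 915 MEF-only peaks (6.52%), and these were the narrowest group, with median widths of 296 bp and 283 bp.

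At the other end, 65 C2C12-only and 66 MEF-only peaks had no peak of the other list within 1 Mb. Their median widths were 362 bp and 380 bp, above those of the unshared peaks as a whole. The largest distances were 3103524 bp for a C2C12-only and 3481980 bp for a MEF-only peak.

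**Figure D2:**
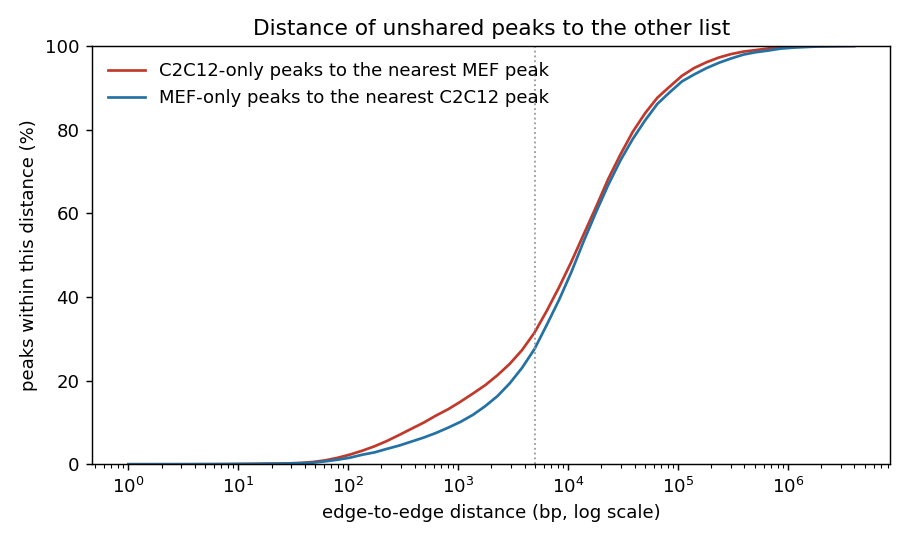
Percentage of C2C12-only peaks (red) and MEF-only peaks (blue) within a given edge-to-edge distance of the nearest peak of the other list, on a log axis, with a dotted line at 5000 bp. The curves stay close to each other, with medians of 11379 bp and 12265 bp, and the C2C12-only curve lies above at short distances.

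Spacing within each list separated the classes in MEFs more than in C2C12 cells. A shared MEF peak lay a median of 8852 bp from the next MEF peak and a MEF-only peak 11388 bp. Within 1000 bp of another MEF peak lay 18.8% of the shared and 12.6% of the MEF-only peaks. In C2C12 cells the medians were 5802 bp for shared and 5619 bp for C2C12-only peaks, and 27.5% and 27.2% lay within 1000 bp of another C2C12 peak. C2C12-only peaks were thus spaced about as densely as shared ones, while MEF-only peaks were more scattered.

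The share of loci with a nearest locus of their own class was above the overall share of each class. The nearest locus of a C2C12-only locus was also C2C12-only in 48.3% of cases (interval 47.7% to 48.9%), beside 41.2% of all loci. The nearest locus of a MEF-only locus was MEF-only in 33.5% of cases (interval 32.7% to 34.3%), beside 21.3% of all loci. For shared loci the value was 40.2%, beside 37.6%. Of the 3 classes, MEF-only loci thus stood furthest above their overall share. The surplus was present on 20 of 20 chromosomes for both unshared classes. It ranged from 3.73 percentage points on chromosome 10 to 10.2 on chromosome 7 for C2C12-only loci, and from 4.92 on chromosome 19 to 22.8 on chromosome X for MEF-only loci.

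At close range, C2C12-only loci had mostly C2C12-only or shared neighbours. Among C2C12-only loci whose nearest locus lay within 1000 bp, that locus was C2C12-only in 52.3%, shared in 40.9% and MEF-only in 6.74% of cases. Among MEF-only loci at the same range, it was MEF-only in 40.7% and C2C12-only in 23.5%. Overlapping C2C12 and MEF peaks were merged into shared loci, so the rule itself removes close neighbours of opposite classes. The part of this in the same-class shares, here and above, was not tested. Where the nearest locus lay over 100000 bp away, the same-class shares were 54.0% for C2C12-only (n = 476) and 42.0% for MEF-only loci (n = 445). The classes themselves were not evenly spread over these distances. C2C12-only loci made up 47.1% of all loci with a neighbour within 1000 bp and 42.9% of those without one within 100000 bp, and MEF-only loci 13.9% and 40.1%. Set beside the share at the same distance, the MEF-only surplus was large at close range and small among isolated loci, where its interval (37.5% to 46.7%) held that share. With the widest C2C12 peaks only, as many as MEF peaks, the same-class shares were 39.8% beside 30.8% for C2C12-only and 39.2% beside 30.1% for MEF-only loci.

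**Figure D3:**
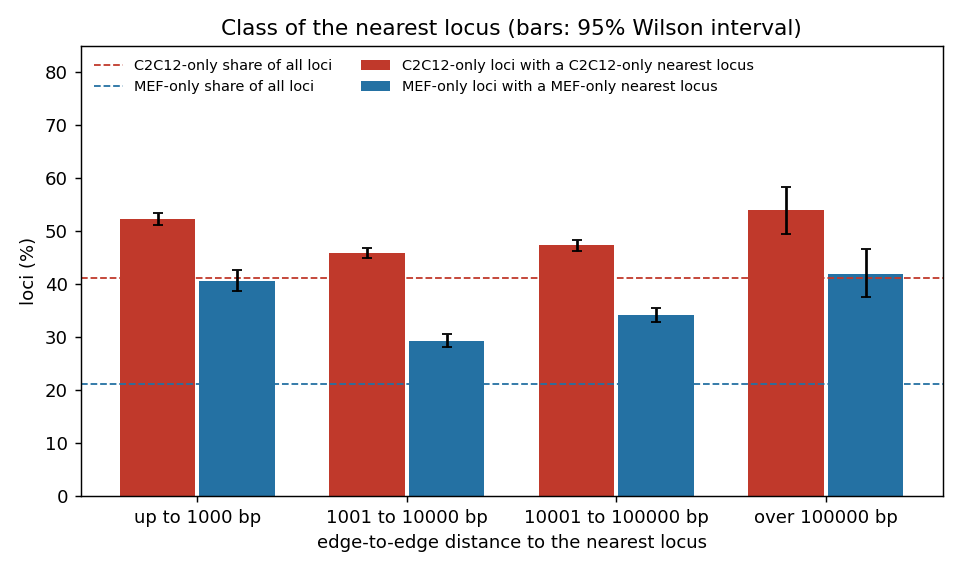
Percentage of C2C12-only loci (red) and MEF-only loci (blue) whose nearest locus was of the same class, by distance to that locus, with 95% Wilson intervals; dashed lines give the share of each class among all loci (41.2% and 21.3%). Each of the 8 bars stands above the dashed line of its class, but among loci over 100000 bp apart MEF-only loci were themselves 40.1% of the loci.

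Clusters were formed by chaining loci of a class at gaps of up to 10000 bp. C2C12-only loci made 1363 clusters of at least 3 loci, which held 4766 loci (17.5% of the class). MEF-only loci made 216 such clusters with 682 loci (4.86%), and shared loci 1022 with 3484 loci (14.1%). At least 5 loci were held by 144 C2C12-only, 87 shared and 4 MEF-only clusters. These numbers moved with the peaks kept: with the 39592 widest C2C12 peaks there were 476 C2C12-only and 362 MEF-only clusters, and with peaks of at least 250 bp in both lists 801 C2C12-only clusters. Most clusters had no locus of another class inside, 914 of the C2C12-only (67.1%) and 163 of the MEF-only clusters (75.5%).

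The largest C2C12-only cluster held 14 loci over 54.7 kb at chr1:173445043-173499765, with 2 loci of other classes among them. A peak after NT paired with Itln1, which encodes the sugar-binding protein intelectin, lay inside it. The next held 13 loci over 43.0 kb at chr10:44996376-45039423, with 1 other locus, and the third 10 loci at chr10:128355400-128387826, with 3 others. The 2 after these held 9 loci at chr12:106230351-106264940 and 8 at chr1:195329544-195348843. The 5 largest MEF-only clusters were smaller and held no locus of another class. They comprised 6 loci over 32.6 kb at chr8:123607540-123640186, 5 each at chr7:29757060-29777142, chr4:111138075-111158203 and chr11:23635855-23658853, and 4 at chr15:6918865-6921812. The cluster on chromosome 4 lay within the stretch between peaks after NT paired with Agbl4, a carboxypeptidase that trims glutamate chains from tubulin.

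Longer runs of a single class were also found, counted as consecutive loci whatever their distance. The longest C2C12-only run held 32 loci over 1.39 Mb at chr1:130556274-131947686. The longest MEF-only run held 23 loci over 1.84 Mb at chr14:28702846-30539083, where a peak after NT is paired with Cacna2d3, an auxiliary subunit of voltage-gated calcium channels. The longest shared run held 13 loci over 0.180 Mb at chr4:125678868-125858738, with Csf3r, the receptor for granulocyte colony-stimulating factor. Runs of at least 10 loci numbered 90 for C2C12-only, 19 for MEF-only and 11 for shared loci. Runs of at least 5 numbered 797, 171 and 424, and the mean run held 1.88, 1.47 and 1.67 loci. Long runs were thus mostly C2C12-only, while MEF-only runs were shorter than shared ones on average. A class with more loci also forms longer runs, and the classes made up 41.2%, 21.3% and 37.6% of all loci in the same order. Run lengths were not set against these shares, so they do not rank the classes by clustering.

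In windows of 1 Mb, C2C12-only loci outnumbered MEF-only loci in 1774 of 2404 windows (73.8%) and the reverse held in 496 (20.6%). The numbers of both unshared classes rose together across windows (Spearman correlation 0.47), and each rose with the number of shared loci (0.74 for C2C12-only and 0.68 for MEF-only). These are descriptions, since neighbouring windows share gene density and base composition. The strongest surplus of C2C12-only loci was at chr1:195000001-196000000, with 43 C2C12-only, 4 MEF-only and 13 shared loci. The peak after NT in this window is listed as closest to Mir205, a microRNA gene known from epithelia. The windows at chr8:96000001-97000000 (39 against 5) and chr12:25000001-26000000 (38 against 4) followed.

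The strongest surplus of MEF-only loci was at chr7:29000001-30000000, with 34 MEF-only, 6 C2C12-only and 16 shared loci. It includes the MEF-only cluster on chromosome 7 named above, and peaks after NT paired with Lrfn1, which encodes a synaptic adhesion protein, and Nccrp1. Fbxo27 and Ifnl3 are listed there as closest genes. The window at chr7:87000001-88000000 held 21 MEF-only and 5 C2C12-only loci beside 29 shared ones, with peaks paired with Fes, a cytoplasmic tyrosine kinase. Blm is listed there as a closest gene. The third, at chr9:41000001-42000000, held 18 MEF-only and 3 C2C12-only loci, with 4930546K05Rik listed as a closest gene. Stretches richer in MEF sites thus existed within a list that was shorter overall.

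The balance between the cell types differed between chromosomes. Over all chromosomes there were 1.33 C2C12 peaks for each MEF peak. The ratio was lowest on chromosome 7 at 1.08 (2579 against 2382 peaks) and highest on chromosome 12 at 1.78 (2163 against 1218). C2C12-only loci outnumbered MEF-only loci on 20 of 20 chromosomes. They made up 32.4% of the loci of chromosome 7 and 52.3% of those of chromosome 12, while MEF-only loci ranged from 14.2% on chromosome 12 to 27.0% on chromosome 9. Shared loci varied less, from 33.4% on chromosome 12 to 41.1% on chromosome 7.

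Chromosomes with relatively more C2C12 peaks also had relatively wider ones. The median width ratio within one-to-one pairs ranged from 1.05 on chromosome 9 to 1.17 on chromosome 12. Over the 20 chromosomes, the count ratio and this width ratio had a Pearson r of 0.65 and a Spearman correlation of 0.55, given as descriptions since all points come from the same 2 lists. The part of read depth or of chromosome copy number in this was not tested. Within chromosomes the ratio moved as well. In windows of 10 Mb with at least 100 peaks, it was 2.63 at chr12:90000001-100000000 (113 against 43 peaks) and 0.752 at chr9:60000001-70000000 (185 against 246), and it fell below 1 in 15 of 255 windows.

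Chromosome X was sparse in both cell types, with 7.45 C2C12 peaks and 5.32 MEF peaks per Mb, the lowest densities of any chromosome in each list. The highest were 28.9 per Mb on chromosome 15 in C2C12 cells and 20.4 per Mb on chromosome 11 in MEFs. Of the MEF peaks on X, 66.8% (interval 63.7% to 69.8%) were shared, against 64.5% on autosomes. The difference was 2.31 percentage points, with an interval over peaks of -0.897 to 5.37. With only the 39592 widest C2C12 peaks the difference was 4.21 points (interval 0.921 to 7.39). With all peaks, single autosomes ranged from 59.4% on chromosome 18 to 70.8% on chromosome 12, and X lay within this range. The intervals cover counting error over peaks only, and whether X differs from autosomes was not tested.

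**Figure D4:**
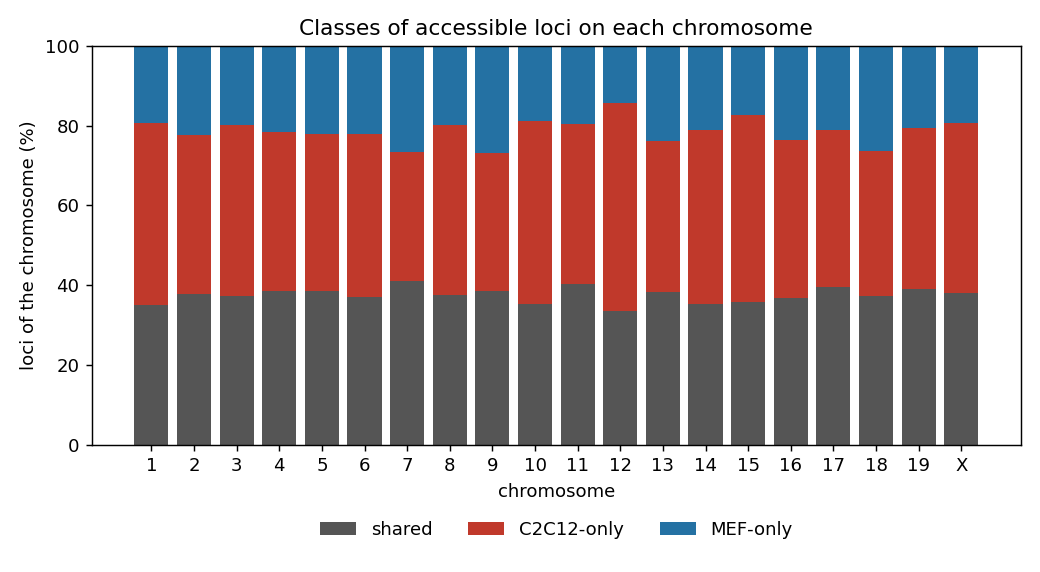
Percentage of loci that were shared (grey), C2C12-only (red) or MEF-only (blue) on each of the 20 chromosomes. The red part is largest on chromosome 12 (52.3%) and smallest on chromosome 7 (32.4%), while the grey part stays between 33.4% and 41.1%.

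Sites in the C2C12 list without a peak in the MEF list included promoters of known genes. The MEF list holds only sites that passed its threshold, so these promoters may also be open in MEFs. The 78 genes with a C2C12-only promoter peak, described above, had 82 such peaks with a median width of 516 bp, wider than the 321 bp of C2C12-only peaks in general. In gene bodies a C2C12 peak was matched at 15 of 289 genes (5.19%), with a median width of 370 bp. No test was made of this difference, and the first sheet of the supplementary lists is held only in part. All of these sites were also peaks after NT by construction, and this selection favours wide peaks. Among all C2C12-only peaks, the list after NT overlapped 1.16% in the narrowest width class and 4.56% in the widest. A median above 321 bp can therefore follow from the selection, and its part in the 516 bp was not tested.

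The widest promoter peak was that of Entpd5, which encodes a nucleotide phosphatase of the endoplasmic reticulum. It was 1264 bp wide, at chr12:85749257-85750520, and lay 41300 bp from the nearest MEF peak. The peak at Prkacb, a catalytic subunit of protein kinase A, was 1130 bp wide at chr3:146475305-146476434. Tmem9b, which encodes a lysosomal membrane protein, had a peak of 1110 bp at chr7:116895472-116896581, and Dbndd2 one of 1083 bp at chr2:164311500-164312582. The peak of Tnks2, a tankyrase that adds ADP-ribose chains to proteins, was 1010 bp wide at chr19:36908400-36909409. That of Mocs3, an enzyme of molybdenum cofactor synthesis, was 989 bp wide at chr2:168055713-168056701.

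The remaining promoter peaks among the 10 widest belonged to B630019K06Rik (941 bp), Prrc1 (887 bp), A230046K03Rik (878 bp) and 1810011O10Rik (859 bp). The B630019K06Rik peak, on chromosome X, lay 306476 bp from any MEF peak, the farthest of the 10. All 10 except that of 1810011O10Rik were found again in the Toca1/Fnbp1l list. Those of Entpd5 and Tnks2 were found in the 1000-cell C2C12 list too. The Toca1/Fnbp1l list is also a list after NT, and these peaks were taken through their overlap with a peak after NT. Finding them there is therefore no separate result about these genes, and the share over all 82 promoter peaks was not computed.

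Among the genes that the study lists with a gene-body peak, the widest C2C12-only peak was that of Qpct, a glutaminyl cyclase, with 775 bp at chr17:79451392-79452166. Another supplementary list, of peaks that overlap genes, pairs wider ones, such as that of Galc (1187 bp), which was looked up after its value was seen. The Qpct peak was followed by Il17d, a cytokine (666 bp, chr14:58144174-58144839), Hkdc1, a hexokinase-like gene (539 bp, chr10:61864348-61864886), and H2-Bl, a transcribed pseudogene of the histocompatibility region (523 bp, chr17:36220307-36220829). The group also held developmental transcription factors. Dmrt3 had a peak of 506 bp at chr19:25697046-25697551, and Zic1 a peak of 378 bp at chr9:91259952-91260329 that lay 808858 bp from the nearest MEF peak. The others of the 10 widest were Cd14 (450 bp), a co-receptor for lipopolysaccharide, Tas1r2 (370 bp), a sweet taste receptor, Gm15328 (339 bp) and Rgs9 (327 bp), a regulator of G-protein signalling.

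For 19 genes, the stretch between the outermost peaks after NT paired with the gene was at least 20 kb long and held at least 5 loci. This selection was made after the data were seen, and the ends of each stretch lie away from MEF peaks by construction. C2C12-only loci outnumbered MEF-only loci in 13 of the 19 stretches, MEF-only loci in 3, and the numbers were equal in 3. Over all windows of 1 Mb the corresponding shares were 73.8% and 20.6%, so this split is near the background and only the counts at single genes are described. At Asic2, which encodes an acid-sensing ion channel, the stretch of 595 kb held 11 C2C12-only, 1 shared and 0 MEF-only loci. At Msi2, an RNA-binding protein of progenitor cells, 302 kb held 12 C2C12-only, 7 shared and 2 MEF-only loci. The paralogs Kalrn and Trio, guanine nucleotide exchange factors, held 9 and 8 C2C12-only loci against 4 MEF-only loci each.

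The reverse was seen at Agbl4, whose stretch holds the MEF-only cluster on chromosome 4. Its stretch of 151 kb held 9 MEF-only, 1 C2C12-only and 0 shared loci. At Aff3, a nuclear protein linked to transcription elongation, 4 loci were MEF-only and 2 C2C12-only. At Tnrc6b, a component of microRNA-mediated silencing, 3 were MEF-only and 0 C2C12-only. Contrasts of this size between neighbouring loci were thus seen in both directions.

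The other 3 lists, which the rule for shared sites did not use, overlapped a larger share of shared than of unshared sites. They come from the same cell types, however. A C2C12-only peak has no called site in the MEF donor cells, and a MEF-only peak none in C2C12 cells. Lower overlap of unshared peaks with a list of the other cell type can therefore follow from the rule. The 1000-cell C2C12 list overlapped 2220 shared C2C12 peaks (8.70%, interval 8.36% to 9.05%) and 743 C2C12-only peaks (2.73%, interval 2.55% to 2.93%). The list of MEFs after NT overlapped 3650 shared C2C12 peaks (14.3%) and 492 C2C12-only peaks (1.81%). With Toca1/Fnbp1l, 7133 shared (28.0%) and 1566 C2C12-only peaks (5.76%) were overlapped. Among MEF peaks, the 1000-cell C2C12 list overlapped 8.44% of the shared and 1.63% of the MEF-only peaks. The list after NT overlapped 14.0% and 2.01% of them, and the Toca1/Fnbp1l list 28.0% and 4.49%. For each list, both for C2C12 and for MEF peaks, the share was higher among shared peaks on 20 of 20 chromosomes.

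**Figure D5:**
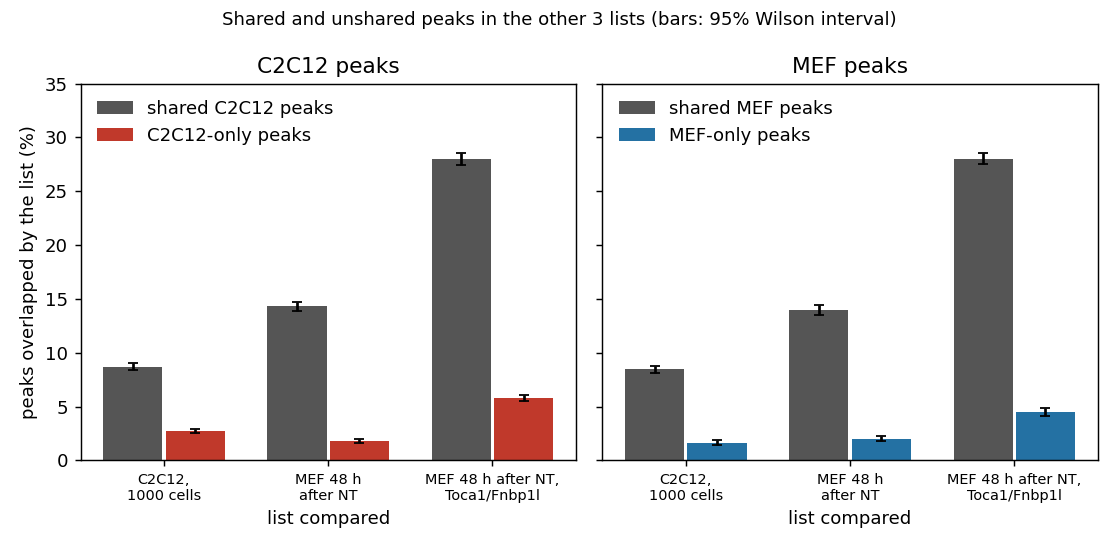
Percentage of C2C12 peaks (left) and MEF peaks (right) overlapped by a peak of each of the other 3 lists, for shared peaks (grey) and unshared peaks (coloured), with 95% Wilson intervals. Shared peaks stand above unshared peaks in all 6 pairs of bars, from 8.44% against 1.63% to 28.0% against 5.76%.

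The shares rose with width in both classes, and shared peaks stayed above C2C12-only peaks at like width in most classes. Among the widest 25% of C2C12 peaks, the Toca1/Fnbp1l list overlapped 46.5% of the shared and 11.98% of the C2C12-only peaks. Among the narrowest 25%, it overlapped 9.33% and 4.16%. The list after NT overlapped 25.0% against 4.56% in the widest and 4.04% against 1.16% in the narrowest class. For the 1000-cell C2C12 list the classes met at the narrow end, with 2.15% (interval 1.70% to 2.71%) against 1.84% (interval 1.60% to 2.13%), and parted in the widest class, with 14.6% against 6.02%. The 1000-cell list overlapped few C2C12 peaks of either class, 2963 of 52697 (5.62%) in all.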

How the data were processed

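ATAC-seq libraries of C2C12 cells (50000 cells, 2 libraries) and of MEFs before NT (3000 cells, 1 library) were compared. Tn5 was used on cells lysed with Triton X-100, and the DNA was column-purified and amplified. The submitters' processing notes name Bowtie2 2.2.1, Picard, MACS2 2.1 and the genome build mm9, without their parameters. Whether the C2C12 libraries were pooled before peak calling is not given in the sources used here. The authors deposited 1 peak list per condition, at a false discovery rate of 0.01, in which a peak has a chromosome, a start and an end in bp. A threshold turns signal into presence or absence, so a site just under it in either list counts as unshared, and a library read more deeply can yield more peaks.

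Starts were changed to 1-based. Overlap of at least 1 bp, edge-to-edge distances, merged loci, clusters (at least 3 loci, gaps up to 10000 bp), runs and windows were computed in Python 3.11.15 with numpy 2.4.6, scipy 1.17.1 and matplotlib 3.10.9. bedtools 2.31.1 gave the same numbers of shared peaks, and the code was tested on simulated data with 0 wrong answers. Densities used the span of the lists on each chromosome. No test was run.

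The named regions were the 5 widest peaks of each class, the 5 largest clusters and the longest run of each class, and the 3 windows of 1 Mb with the strongest surplus each way. Genes were the 10 with the widest C2C12-only peak at a promoter and in a gene body. Added were genes paired inside a named region or with paired peaks on both sides of it. Gene names came from the study's supplementary peak lists, from which no value was used, and 2179 of 2268 symbols were found in RefSeq's gene table (GRCm38.p6). Promoter sequences are RefSeq's. The cell types, lists and rules were chosen with earlier results of these data known, and the motifs and the gene stretches after the data were seen. Alternatives were another overlap rule, a minimum width of 250 bp, joining of peaks up to 150 bp apart, autosomes only, the widest C2C12 peaks only, as many as MEF peaks, and other distances.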

Additional observations from a re-analysis of the deposited data

How the results depend on the processing

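Of 61 values recomputed for 11 results, 31 stayed within their interval or, for counts, within 1.5 times, 30 moved further and 0 changed direction. Only the width differences and the difference between X and autosomes could change direction, because shares and counts cannot fall below 0. Autosomes only and distances of 1000 or 10000 bp moved none. In the order MEF peaks shared, C2C12 peaks shared and width difference in C2C12 cells, the values were 52.6%, 39.5% and 157 bp with reciprocal overlap of at least 50%, and 66.9%, 53.7% and 154 bp within 500 bp, where the width difference in MEFs was 94 bp. With peaks of at least 250 bp they were 63.3%, 51.4% and 164 bp, the same-class share of C2C12-only loci was 45.3% and their clusters numbered 801. With peaks up to 150 bp apart joined, 49.3% of C2C12 peaks were shared, the width differences were 217 bp and 118 bp, and the same-class shares were 46.7% for C2C12-only and 32.0% for MEF-only loci. With the widest C2C12 peaks only, as many as MEF peaks, 57.3% of MEF and 56.3% of C2C12 peaks were shared, the width differences were 146 bp in C2C12 cells and 125 bp in MEFs, and 12167 C2C12-only peaks lay at least 5000 bp from a MEF peak. The same-class shares were then 39.8% and 39.2%, clusters numbered 476 and 362, and the difference between X and autosomes was 4.21 points (interval 0.921 to 7.39). Linking at 5000 bp gave 633 C2C12-only and 60 MEF-only clusters, and at 20000 bp 2468 and 562. Fewer peaks or a looser or stricter rule are part of these settings; beyond that the cause was not tested. No paired analysis was possible because each condition has 1 list, and for the same reason no library could be left out. Depth, which the lists do not hold, limits every count of unshared peaks.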
